A study of Homo sapiens with 28 samples.

Results

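Embryonal carcinoma (EC) lines grown on plastic were set against embryonic stem (ES) lines grown on feeder cells, across every transcript cluster of the array. A transcript cluster is a set of probes summarised as 1 value. Of 22011 clusters 14432 carried 1 gene symbol, 2408 several and 5171 none, so counts of clusters are not counts of genes. The members were chosen by their labels: 11 of the 14 arrays summarised per gene (28 samples with the exon-level summaries) belong to these groups. The EC group held NCCIT, 2102Ep, 833KE, TERA1 and NTERA2 (n = 5), grown on plastic in a glucose-rich DMEM to which 10% fetal calf serum was added. The ES group held H14, Shef5, Shef6, Shef3, H9 and Shef7 (n = 6), kept on mouse embryo fibroblasts that mitomycin C had stopped from dividing; their medium was knock-out DMEM, with FGF at 4 ng/ml and Serum Replacement at 10%. Every culture was sorted for the surface antigen SSEA3 before RNA was taken. Each array is a different line from a different source, and no culture was measured more than once in a group. The spread within a group is therefore that between lines, with any variation between cultures and arrays in it. The growth medium, the feeder layer and the cell type differ together between the groups and cannot be told apart. Fewer cells of a kind and less RNA per cell cannot be told apart either.

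EC cells are the stem cells of teratocarcinomas, which are tumours of germ cell origin, whereas ES cells come from the inner cell mass of the blastocyst. Both share a transcription factor network that keeps them pluripotent, and SSEA3 is a globo-series glycolipid found on undifferentiated cells of either kind. Malignant germ cell tumours typically carry extra copies of the short arm of chromosome 12 (12p). The comparison describes how tumour-derived lines on plastic differed from ES lines on feeders, without telling the origin of the cells from their culture.

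The deposited value of a cluster is a log2 signal, and the medians of the 11 arrays lay between 6.19 and 6.34. Over all clusters, ES lines correlated with one another at r = 0.963 to 0.984 (15 pairs), EC lines at 0.937 to 0.974 (10 pairs) and EC with ES lines at 0.931 to 0.969 (30 pairs). The labels also number the arrays, and H14 and Shef5 have lower numbers than the 9 others, which include every EC array. Of 17 listed pluripotency markers 13 were measured, and none of these was called at an adjusted p below 0.05 by limma. POU5F1, NANOG, SOX2 and TDGF1 were not measured, as none had a cluster with its symbol alone. Differences of the 13 were above 0 in 6 and below 0 in 7. The largest were those of DPPA2 (2.38, adjusted p = 0.0832 by limma) and L1TD1 (1.01, 0.0992). ZFP42 varied widely between lines (SD 2.96 in EC and 2.79 in ES). LIN28A, an RNA-binding protein of pluripotent cells, had 12.56 ± 0.54 in EC (SD, n = 5) and 12.61 ± 0.23 in ES (SD, n = 6), and SALL4, a zinc finger factor, 10.75 ± 0.23 and 10.91 ± 0.32. Neural markers (8 measured) and trophoblast markers (8 measured) held no called gene. Of 11 mesoderm and endoderm markers all differed below 0, and GATA6 and SOX17 were called lower (-0.77 and -0.65), with mean levels of the list from 5.55 to 5.72 in EC and 5.79 to 7.01 in ES. SOX17 lost its call without any 1 of 4 arrays (adjusted p up to 0.0611 by limma), without H14 and Shef5 (0.0824) and with the 3 EC lines on plastic that were also grown on feeders (0.106). With those lines on feeders neither GATA6 (0.263) nor SOX17 (0.303) was called. Markers of fibroblasts, the cells of the feeder layer, had mean levels of 4.93 to 5.25 in EC and 5.33 to 6.18 in ES. The 3 EC lines on feeders had 5.41 to 5.71, above every EC line on plastic and within the ES range. In that list 9 of 11 differed below 0 (median -0.50). COL1A1 alone was called (-1.65), and DCN, FAP, LUM and POSTN were below the lower quartile of every array. The part of feeder RNA in the results was not tested.

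EC lines on plastic had more clusters above the ES lines than below them. Of 22011 clusters, 718 were higher (3.26%) and 294 lower (1.34%) at an adjusted p below 0.05 by limma, and 406 and 159 of these differed at least 2-fold. The median size of a called difference was 1.06 on the log2 scale, against a median SD between lines of 0.34 in EC and 0.29 in ES. Called higher clusters had a median level of 6.93 in ES and 8.11 in EC, and called lower clusters one of 7.21 in ES and 5.99 in EC. In 710 of the 1012 called clusters every EC line lay on the same side of every ES line (509 higher, 201 lower), and such separation was found in 961 clusters in all (4.37%). No called gene was below the lower quartile of every array in 1 group and above the median of every array in the other, so no difference was of an on-off kind by that measure. An unadjusted p below 0.05 was found in 4233 clusters by limma. Quantile normalisation gave 571 higher and 437 lower. Without the 2 lower-numbered ES arrays the counts were 376 and 151.

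The genes called higher whose lines were fully separate, ranked 13 to 24 by size, ranged from signalling proteins to enzymes. ARHGAP29, a GTPase-activating protein, led them (transcript cluster 2423829, chromosome 1), with 8.27 in NCCIT, 8.90 in 2102Ep, 9.33 in 833KE, 9.21 in TERA1 and 7.0 in NTERA2 and with ES lines between 5.43 and 6.23 (median 5.93). The groups did not overlap, NTERA2 being the nearest EC line, and EC was 6.26-fold higher, a log2 difference of 2.65 (SE 0.36, adjusted p = 0.00284) by limma. TDRD5, a tudor protein of the piRNA pathway that silences transposons in the male germ line, had 6.88, 6.91, 5.68, 6.03 and 7.28 in the same order of EC lines and 3.53 to 4.44 (median 4.00) in ES. Here 833KE was the lowest EC line, and the difference was 2.54 (SE 0.28, adjusted p = 0.000931). In ETV5, an ETS factor downstream of FGF signals, the EC lines had 8.49, 9.31, 9.43, 9.34 and 9.78 and the ES lines 5.19 to 7.67 (median 7.08). Its EC values were close together apart from NCCIT, the lowest, and the difference was 2.49 (SE 0.40, adjusted p = 0.00621).

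NR5A2 and TFCP2L1 both belong to the transcription factors of naive pluripotency. NR5A2, an orphan nuclear receptor, had EC values of 8.85, 8.34, 7.63, 8.31 and 7.81 and ES values of 5.41 to 6.07 (median 5.83), a difference of 2.39 (SE 0.22, adjusted p = 0.000394) by limma. TFCP2L1 had 7.56, 9.25, 9.76, 8.78 and 7.65 in EC and 5.89 to 6.70 (median 6.30) in ES, a difference of 2.31 (SE 0.37, adjusted p = 0.00643). In the first NCCIT was the highest EC line, in the second the lowest, and neither gene overlapped between groups. FERRY3 on 12p, a subunit of an endosomal complex that carries mRNA, had the smallest p of the 12, with 8.46, 9.15, 8.85, 8.68 and 8.46 in EC and 6.02 to 6.61 (median 6.35) in ES. The EC lines spanned less than 1 log2 unit, and the difference was 2.39 (SE 0.16, adjusted p = 3.36e-05). PLBD1, a lysosomal phospholipase B-like protein (2.36), and ETFRF1, a regulator of mitochondrial electron transfer (2.35), also lie on 12p, as 3 of the 12 genes do. Others were ZNF528 (2.47), a zinc finger gene, TMT1A, a thiol methyltransferase (2.44), and SCML1, a Polycomb-like protein (2.18). FMO5, a flavin monooxygenase (2.19), split the EC lines. It stood at 5.13, 5.87, 7.79, 7.77 and 5.34 in them against 4.10 to 4.25 (median 4.20) in ES, so that 833KE and TERA1 were far above the other EC lines, which were still above every ES line.

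Of these 12 genes, PLBD1 lost its call without any 1 of 5 arrays (adjusted p up to 0.0629 by limma) and without the 2 lower-numbered ES arrays (0.0503), where FMO5 lost it too (0.0842). With the 3 EC lines on feeders in place of the plastic cultures, ZNF528 (0.0847), TMT1A (0.0917) and SCML1 (0.0779) were not called.

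**Figure D1:**
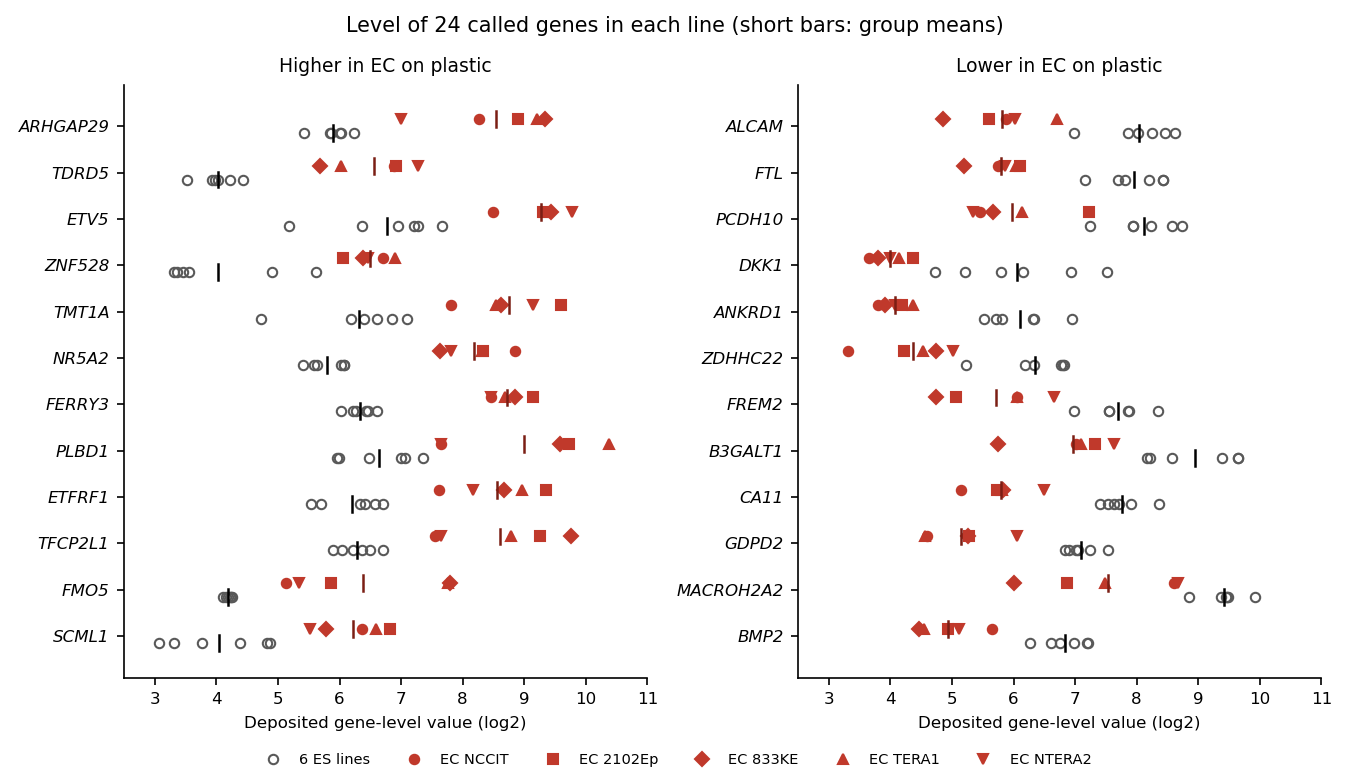
Deposited gene-level log2 value (x axis) of the 24 genes ranked 13 to 24 in each direction (y axis), with 1 red symbol per EC line on plastic, open circles for the 6 ES lines and short bars for group means. In every gene the 2 groups are separate, while FMO5, PLBD1 and MACROH2A2 spread widely among the EC lines.

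Among the genes called lower at the same ranks, several act at the cell surface or outside the cell. ALCAM, an adhesion molecule of the immunoglobulin family (cluster 2634494), had 5.87 in NCCIT, 5.59 in 2102Ep, 4.86 in 833KE, 6.70 in TERA1 and 6.02 in NTERA2, with ES lines between 6.98 and 8.63 (median 8.14). The lowest ES line was just above the highest EC line, and EC was 4.67-fold lower, a log2 difference of -2.22 (SE 0.34, adjusted p = 0.00514) by limma. PCDH10, a protocadherin, had 5.45, 7.23, 5.67, 6.14 and 5.34 in EC and 7.25 to 8.74 (median 8.09) in ES, with 2102Ep almost at the lowest ES line, and differed by -2.14 (SE 0.35, adjusted p = 0.00671). FREM2, a protein of the epithelial basement membrane, had 6.05, 5.06, 4.73, 6.05 and 6.65 in EC and 6.98 to 8.35 (median 7.71) in ES and differed by -1.99 (SE 0.34, adjusted p = 0.00807). The secreted signals DKK1, a WNT antagonist, and BMP2, a ligand of the TGF-beta family, were low in all 5 EC lines. DKK1 had 3.65, 4.36, 3.8, 4.14 and 3.99 in EC and 4.72 to 7.52 (median 5.98) in ES, a difference of -2.07 (SE 0.43, adjusted p = 0.0196). BMP2 had 5.65, 4.93, 4.46, 4.55 and 5.11 and 6.27 to 7.20 (median 6.87), a difference of -1.90 (SE 0.24, adjusted p = 0.00183). In DKK1 the EC lines lay close together and the ES lines spread widely, and in BMP2 the spread was alike in both groups.

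FTL encodes the light chain of ferritin, the iron store. It had 5.75, 6.11, 5.2, 6.04 and 5.85 in EC and 7.16 to 8.43 (median 8.01) in ES, a difference of -2.17 (SE 0.25, adjusted p = 0.00107) by limma, but 3 of 15 probesets were called lower on the exon-level arrays. MACROH2A2, a variant histone that replaces H2A, had 8.60, 6.87, 6.01, 7.49 and 8.67 in EC and 8.85 to 9.92 (median 9.46) in ES. NCCIT and NTERA2 were close to the ES lines and 833KE far below them, and the difference was -1.90 (SE 0.43, adjusted p = 0.0287). The others were ANKRD1, an ankyrin repeat protein and known target of the YAP coactivator (-2.04), and ZDHHC22, a palmitoyl transferase (-1.99). B3GALT1, a galactosyltransferase (-1.98), CA11, a carbonic anhydrase-related protein without enzyme activity (-1.96), and GDPD2, a glycerophosphodiester phosphodiesterase (-1.95), completed them. None of the 12 lies on 12p or on chromosome 1.

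MACROH2A2 lost its call without any 1 of 6 arrays (adjusted p up to 0.0753 by limma), without the 2 lower-numbered ES arrays (0.0739) and with the array number class as a block (0.0515), and DKK1 with the 3 EC lines that were also grown on feeders (0.0734). With those lines on feeders, BMP2 (0.193), DKK1 (0.125), MACROH2A2 (0.112), PCDH10 (0.0775), FTL (0.0756) and ANKRD1 (0.0563) were not called.

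The genes with the next smallest p were taken outside the 24 largest separate differences of each direction, 8 each way; some of those 24, such as FERRY3, NR5A2, CER1 and GPR176, had smaller p. OR3A2, an olfactory receptor gene measured by a single probeset, had 6.05, 6.66, 6.58, 6.44 and 6.28 in EC and 4.25 to 4.65 (median 4.55) in ES, 1.90 apart (adjusted p = 6.29e-05 by limma). It belongs to a large family of like genes, and signal from another member was not tested. The 12p genes ADIPOR2, a receptor for adiponectin (1.68), NECAP1, a clathrin adaptor partner (1.87), EMG1, a methyltransferase of ribosome assembly (1.66), CREBL2, a leucine zipper protein (1.82), and TULP3, a trafficking protein of cilia (1.99), made up 5 of these 8. In ADIPOR2 the EC lines had 8.66, 9.41, 9.07, 8.95 and 8.69 and the ES lines 7.11 to 7.45 (median 7.28), so the gap between the groups exceeded the whole ES range. TLR3, the endosomal sensor of double-stranded RNA, had 4.93, 5.00, 5.60, 5.12 and 4.80 in EC and 3.35 to 3.86 (median 3.69) in ES, with a difference of 1.43 (SE 0.16, adjusted p = 0.000931). HSD17B11, a steroid dehydrogenase of lipid droplets, differed by 2.03 (SE 0.23, adjusted p = 0.00107), with 9.09, 8.91, 8.79, 8.86 and 9.61 in EC and 6.56 to 7.86 (median 6.97) in ES. NTERA2 was the highest EC line in the last gene and the lowest in TLR3.

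On the lower side AJUBA, a LIM protein that holds back the Hippo kinases, had the smallest p of the 8 taken in this way and is described with its pathway. COLEC12, a scavenger receptor of the collectin family, had 3.88, 4.36, 4.75, 4.48 and 4.12 in EC and 5.85 to 6.59 (median 6.15) in ES and differed by -1.84 (SE 0.19, adjusted p = 0.000616) by limma. TRPM3, a cation channel, had 3.74, 4.21, 3.8, 4.05 and 4.35 and 5.27 to 6.03 (median 5.52) and differed by -1.55 (SE 0.17, adjusted p = 0.000931). Both genes were dim in every EC line, below 5. CAMKK2, a kinase upstream of AMPK, had 6.34, 6.46, 6.43, 6.45 and 6.97 in EC and 7.70 to 8.18 (median 7.72) in ES, with NTERA2 above the other EC lines, and differed by -1.28 (adjusted p = 0.00107). DOK5, a docking protein of receptor kinases, differed by -1.78, TCEAL7, a nuclear protein of the TCEAL family, by -1.37, COL14A1, a fibril-associated collagen, by -1.14, and DDAH2, an enzyme of the nitric oxide pathway, by -1.09. With the EC lines on feeders, TLR3 (0.179), DDAH2 (0.172), TCEAL7 (0.0897) and CAMKK2 (0.0566) had adjusted p above the threshold by limma.

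Gene families were then counted over 34 lists, against 549 higher (3.86%) and 238 lower (1.67%) among all 14220 genes with 1 symbol, whose median difference was 0.01. Cadherins and protocadherins, which join cells through calcium-dependent contacts, held 6 called lower and none higher of 38 measured (median -0.13, with 28 below 0). Besides PCDH10 these were CDH11, a mesenchymal cadherin (-1.11), the desmosomal cadherins DSC2 (-0.95) and DSC3 (-0.92), CDH24 (-0.82) and DCHS1, a large protocadherin of planar cell polarity (-0.61). DSC2 had 8.37, 7.93, 7.03, 8.33 and 8.09 in EC and 8.64 to 9.01 (median 8.99) in ES. The ES lines were tight and every EC line was below them, 833KE farthest. Of the 6, PCDH10 and CDH24 were called whichever array was left out. The count of the list fell to 2 without Shef6, 2102Ep, Shef3 or Shef7, and to 3 without H14, Shef5 or TERA1. Without both lower-numbered ES arrays it was 2, with PCDH10 the 1 of the 6 still called (CDH24 at an adjusted p of 0.0532), and with EC lines on feeders it was 3, with DSC2 the 1 of the 6 still called.

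Other lists of contact genes held 0 to 3 calls each. No gene of 31 tight and gap junction genes (median -0.15) or of 20 Eph receptors and ephrins (median -0.21) was called; the closest were CLDN3, a claudin (-0.47, adjusted p = 0.0648 by limma), and EPHA6 (-0.56, adjusted p = 0.174). Of 30 integrins and laminins, ITGA9, a subunit of a tenascin receptor, was higher, with 7.85, 8.55, 7.88, 7.38 and 7.08 in EC and 6.33 to 6.68 (median 6.62) in ES and a difference of 1.17 (SE 0.22, adjusted p = 0.0121). ITGA5, the fibronectin receptor subunit (-1.28), and LAMA1, a laminin chain of early basement membranes (-1.06), were lower, and NTERA2 overlapped the ES lines in each. Of 39 axon guidance genes, the semaphorins SEMA5A (-1.37) and SEMA4G (-0.57) were lower. Of 34 genes of heparan sulphate proteoglycans 3 were lower: GPC6 (-2.0), SDC1 (-0.89) and HS3ST2 (-0.46). ITGA5 lost its call without any 1 of 5 arrays, LAMA1, SEMA4G and GPC6 without any 1 of 8, and HS3ST2 without any 1 of 10. Without the 2 lower-numbered ES arrays ITGA9 (0.0524) and SDC1 (0.0514) were not called by limma either.

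**Figure D2:**
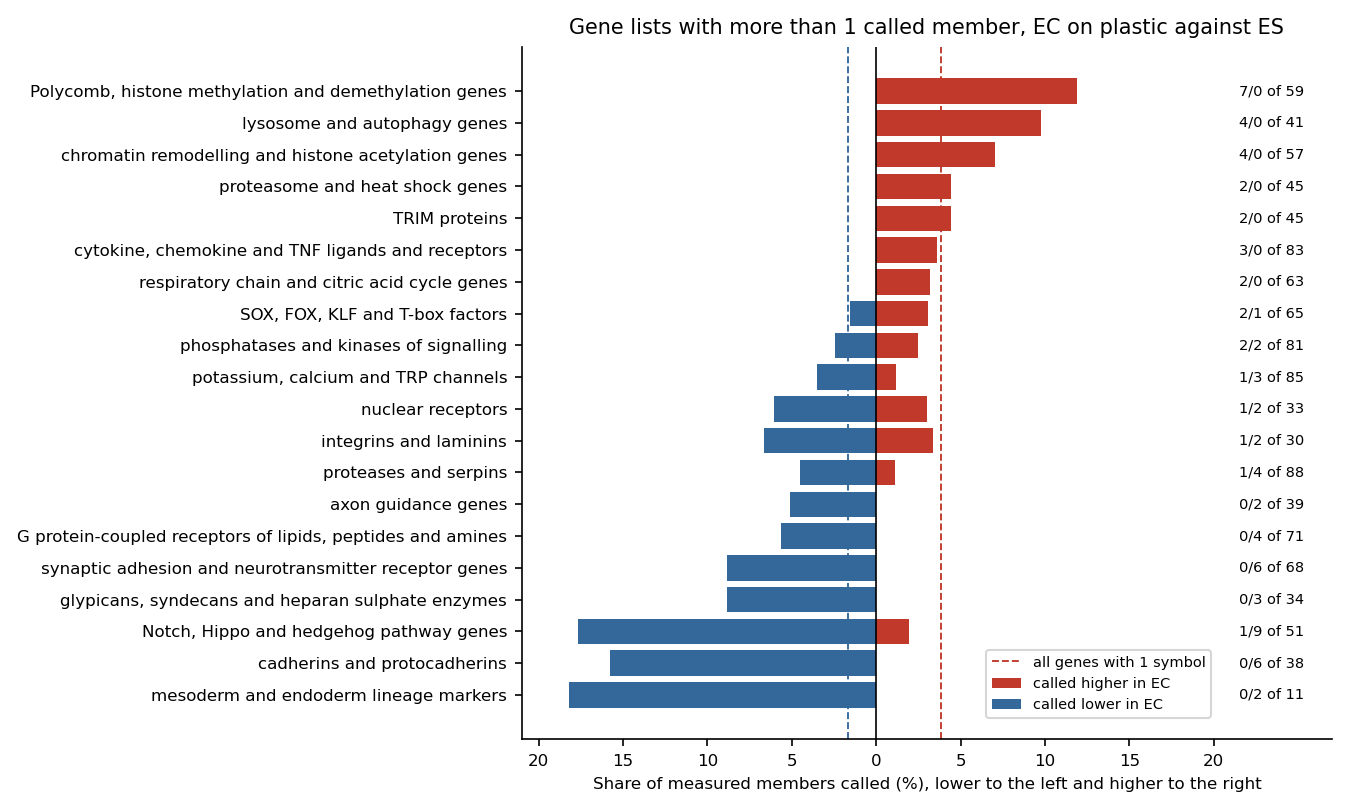
Share of measured members called higher (red, right) or lower (blue, left) in EC lines on plastic, as a percentage (x axis), for each list with more than 1 called member (y axis), with counts higher/lower of measured at the right. The dashed lines give the shares over all genes with 1 symbol, 3.86% higher and 1.67% lower; Polycomb and histone methylation genes reach 11.9% higher and Notch, Hippo and hedgehog genes 17.6% lower.

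Genes of the Notch, Hippo and hedgehog pathways held 9 lower and 1 higher of 51 measured (17.6% and 1.96%), with a median of -0.11 and 15 members above 0. In the Hippo pathway a kinase cascade keeps the coactivators YAP and TAZ out of the nucleus, where they would bind TEAD factors at their target genes. AJUBA had 5.53 in NCCIT, 5.76 in 2102Ep, 5.51 in 833KE, 5.84 in TERA1 and 6.45 in NTERA2, and the ES lines lay between 7.41 and 7.95 (median 7.68). Every EC line was below the lowest ES line, NTERA2 the least, and the difference was -1.85 (SE 0.18, adjusted p = 0.000404) by limma. TEAD2, a TEAD factor, had 7.71, 8.33, 7.71, 8.17 and 7.90 in EC and 8.65 to 9.38 (median 9.16) in ES and differed by -1.12 (SE 0.18, adjusted p = 0.00646). TEAD3 had 5.80, 6.29, 6.40, 6.50 and 6.73 and 6.94 to 7.76 (median 7.35) and differed by -1.01 (SE 0.19, adjusted p = 0.0133). In contrast WWTR1, which encodes TAZ, was the 1 member called higher, with 8.44, 8.93, 8.64, 8.94 and 8.50 in EC and 7.53 to 8.23 (median 7.76) in ES. Its lines did not overlap either, and the difference was 0.91 (SE 0.16, adjusted p = 0.00870). AMOTL1, an angiomotin that binds YAP, differed by -1.1 and CCN1, a matricellular target of YAP, by -0.88.

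ANKRD1 and CCN2 are known targets of YAP outside the list, and other targets were not counted. ANKRD1, one of the 12 lower genes above, had 3.8, 4.19, 3.91, 4.37 and 4.07 in EC and 5.52 to 6.94 (median 6.07) in ES, a difference of -2.04 (SE 0.24, adjusted p = 0.00117) by limma, and no EC line was above 4.37. CCN2, the connective tissue growth factor, had 7.31, 7.44, 8.13, 8.45 and 7.71 in EC and 8.66 to 9.74 (median 9.24) in ES, a difference of -1.36 (SE 0.25, adjusted p = 0.0101). TERA1 was the EC line nearest to the ES lines in both genes. CCN2 was picked after its values were seen, and lost its call without the 2 lower-numbered ES arrays (0.0525) and with EC lines on feeders (0.184).

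TEAD factors bind the hexamer GGAATG, and CATTCC is the same word on the other strand. The word was searched on both strands in RefSeq promoters of GRCh38.p14, each running from 250 bases before to 50 after the gene start. Stretches of 3 are shown because they set both targets beside AJUBA, the member with the largest difference, with matches in capitals. The CCN2 stretch is chr6:131951373-131951572, the ANKRD1 stretch chr10:90921188-90921337 and the AJUBA stretch chr14:22982552-22982701, all on the minus strand and written 5′ to 3′ toward the gene.
CCN2: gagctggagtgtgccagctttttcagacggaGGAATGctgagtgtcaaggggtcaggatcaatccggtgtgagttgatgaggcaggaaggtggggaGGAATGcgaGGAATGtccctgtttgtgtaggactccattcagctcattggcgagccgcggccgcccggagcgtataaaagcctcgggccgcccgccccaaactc
ANKRD1: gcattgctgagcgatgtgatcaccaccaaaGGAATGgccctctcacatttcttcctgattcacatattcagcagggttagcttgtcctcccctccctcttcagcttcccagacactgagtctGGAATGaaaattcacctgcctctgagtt
AJUBA: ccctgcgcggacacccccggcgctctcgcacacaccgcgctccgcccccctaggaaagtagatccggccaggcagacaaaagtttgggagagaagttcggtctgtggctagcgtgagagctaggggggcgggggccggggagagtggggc
Of the 9 list members searched SMO held 1 match, and AJUBA, NOTCH3, TEAD2, AMOTL1, TEAD3, WWTR1, HES1 and NUMBL held none; CCN1 was not searched. The word was found in 3836 of all 27305 promoters (14%), and 374 (1.37%) held 2 or more matches. CCN2 held 3 and ANKRD1 2, but both had been added as known targets, so they were not counted with the list. A match is a word in a window of fixed length, and no binding was measured.

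The called Notch and hedgehog members were NOTCH3, SMO, NUMBL and HES1. NOTCH3, a Notch receptor, had 7.32, 7.89, 7.01, 6.92 and 7.92 in EC and 8.20 to 9.23 (median 8.38) in ES and differed by -1.16 (SE 0.25, adjusted p = 0.0225) by limma. SMO, the membrane protein that relays hedgehog signals, had 7.85, 7.52, 7.31, 7.18 and 8.0 and 8.20 to 8.46 (median 8.30) and differed by -0.74 (SE 0.16, adjusted p = 0.020). NUMBL, a relative of the Notch inhibitor NUMB, differed by -0.55 and HES1, the classical Notch target, by -0.69. Groups did not overlap in these 4 genes. The count of lower members was 11 after quantile normalisation, 6 with 3 EC lines on plastic, 5 with the number class as a block, 3 without the 2 lower-numbered ES arrays and 1 with EC lines on feeders. It was 4 without 833KE, 5 without TERA1 and 6 without 2102Ep or Shef3. With EC lines on feeders only AJUBA of those 9 was called, and WWTR1 was called higher.

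Genes that write, read or erase histone marks held calls in the higher direction alone. Of 59 genes of Polycomb complexes and histone methylation, 7 were higher and none lower (11.9% against 3.86%), with a median of 0.09. AEBP2 and RYBP belong to Polycomb repressive complexes. AEBP2, on 12p, had 8.88, 10.04, 10.01, 10.10 and 9.89 in EC and 7.82 to 8.71 (median 7.91) in ES, with NCCIT lowest in EC and H9 highest in ES, and differed by 1.75 (SE 0.24, adjusted p = 0.00284) by limma. RYBP had 9.04, 9.47, 8.70, 8.46 and 9.14 and 7.26 to 8.43 (median 7.59) and differed by 1.22 (SE 0.24, adjusted p = 0.0141). The demethylases KDM5A, also on 12p (1.6), KDM4A (1.17), KDM4C (1.16) and PHF8 (0.96) and the methyltransferase SMYD2 (1.09) completed the 7. KDM4A and SMYD2 lie on chromosome 1 and PHF8 on the X chromosome. Of all genes on chromosome 1 11.2% were higher, of those on X 6.92% and of those on 12p 38.7%. The part of these regions in the count of the list was not tested. KDM4A, an eraser of H3K9 and H3K36 methylation, had 10.75, 10.18, 10.45, 9.85 and 10.22 in EC and 8.64 to 9.83 (median 9.0) in ES. SMYD2 had 7.65, 7.94, 7.48, 7.67 and 7.29 in EC and 6.06 to 6.98 (median 6.46) in ES, without overlap, and was called in every alternative. The list had 6 to 8 members higher whichever array was left out, 3 with EC lines on feeders, and a median of -0.05 after quantile normalisation with 6 higher.

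Of 57 genes of chromatin remodelling and histone acetylation 4 were higher and none lower (median 0.02). HDAC1, a histone deacetylase on 1p, was the steadiest, with 10.48, 10.68, 10.89, 11.11 and 10.60 in EC and 9.77 to 10.19 (median 9.90) in ES and a difference of 0.81 (SE 0.14, adjusted p = 0.00893) by limma. HELLS, a helicase needed for DNA methylation at repeats, had 10.17, 10.87, 10.80, 10.12 and 10.16 in EC and 8.87 to 10.01 (median 9.22) in ES. NCCIT, TERA1 and NTERA2 were just above the highest ES line, and HELLS differed by 1.13 (SE 0.22, adjusted p = 0.0141 by limma). ATRX, a remodeller at telomeres and repeats (0.62), and HDAC6, a cytoplasmic deacetylase (0.58), lost their calls without any 1 of 7 and 8 arrays. Both lie on the X chromosome. Without the 2 lower-numbered ES arrays RYBP (0.0679), KDM4A (0.0693), HELLS (0.0699) and ATRX (0.0801) were not called. PHF8 lost its call without any 1 of 8 arrays and after quantile normalisation (0.0783). The remodelling list had 3 higher after quantile normalisation, where HDAC6 was not called (0.0597). It had 2 without the lower-numbered ES arrays, with the number class as a block, with EC lines on feeders and without 2102Ep, 833KE, Shef3, Shef6 or Shef7.

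Outside the ZNF genes, the transcription factor families listed held few calls. No homeobox factor was called of 78 measured; VENTX had the smallest p (1.11, adjusted p = 0.0843 by limma). Of 65 SOX, FOX, KLF and T-box factors, FOXP1, a forkhead repressor (0.90), and FOXJ3 (0.75) were higher and KLF12 lower (-1.20). Of 33 nuclear receptors, PPARG, the receptor of adipocyte differentiation, was higher (0.72), and RARG, a retinoic acid receptor (-1.24), and RORB, an orphan receptor (-0.83), were lower. RARG had 5.21, 5.73, 5.53, 5.54 and 7.30 in EC and 6.78 to 7.51 (median 7.12) in ES, so that NTERA2 alone was at the level of the ES lines. Each of these 6 lost its call without at least 1 array, from 3 arrays for FOXJ3 to 10 for RARG. Genes with ZNF symbols held more, 42 higher and 3 lower of 311 with a median of 0.26. Among all 14220 genes 549 were higher (3.86%) and 238 lower (1.67%).

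G protein-coupled receptors, channels and synaptic genes were called lower more often than higher. Among all genes 3.86% were higher and 1.67% lower. Of 71 G protein-coupled receptors 4 were lower (5.63%) and none higher, with a median of -0.10. CCKBR, the gastrin receptor, had 5.73, 5.73, 5.72, 6.17 and 6.44 in EC and 6.90 to 7.93 (median 7.29) in ES, a difference of -1.36 (SE 0.22, adjusted p = 0.00627) by limma that was called in every alternative. S1PR2, a receptor for sphingosine 1-phosphate, had 6.68, 6.43, 6.45, 6.45 and 6.56 and 7.04 to 7.33 (median 7.19) and differed by -0.68 (SE 0.11, adjusted p = 0.00646), although none of its 4 probesets was called. TACR3, the neurokinin B receptor (-1.24), and ADRA2A, an adrenergic receptor (-0.65), each lost the call without any 1 of 8 arrays. Of 68 genes of synaptic adhesion and neurotransmitter receptors 6 were lower (8.82%): GRIK5, GRIA3, NLGN3, LRRTM1, SLITRK3 and CADM4, with differences from -1.08 to -0.68. The list as a whole was centred near 0, with a median of -0.01, 33 members above 0 and 35 below. NLGN3, a neuroligin, was called whichever array was left out; it had 5.69, 5.66, 5.49, 5.53 and 6.43 in EC and 6.41 to 6.92 (median 6.68) in ES, with NTERA2 alone among the ES lines. The synaptic count fell to 1 without Shef7, to 2 without Shef6, 2102Ep or 833KE, to 3 without Shef3, H9, TERA1 or both lower-numbered ES arrays, and to 4 without H14. Of 85 potassium, calcium and TRP channels, 1.18% were higher, CACNA2D3 (1.03), and 3.53% lower, TRPM3, KCNG1 (-0.69) and TRPM4 (-0.50). Of these, TRPM3 alone was called whichever array was left out.

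Of 83 cytokine, chemokine and TNF ligands and receptors 3 were higher (3.61%, near the 3.86% of all genes) and none lower, with a median of -0.01. TNFRSF1A, the main TNF receptor, which lies on 12p, had 8.05, 8.62, 8.56, 8.84 and 8.43 in EC and 7.29 to 7.53 (median 7.43) in ES, a difference of 1.07 (SE 0.14, adjusted p = 0.00233) by limma. IL6R, which binds interleukin 6, had 7.30, 7.04, 8.55, 9.01 and 6.84 in EC and 6.14 to 6.27 (median 6.17) in ES, with 833KE and TERA1 well above the other EC lines. It differed by 1.56 (SE 0.35, adjusted p = 0.0285), and IL6ST, its signalling partner, by 1.33 (SE 0.34, adjusted p = 0.0478). Both lost their calls without the 2 lower-numbered ES arrays (0.099 and 0.175) and without any 1 of 6 and 9 arrays. Of 81 signalling kinases and phosphatases, PRKCB, a protein kinase C (-1.40), and DAPK1 (-0.85) were lower and DUSP16, a MAP kinase phosphatase on 12p (1.28), and PTPRB (1.14) higher. PRKCB had 4.94, 5.51, 5.18, 4.96 and 6.00 in EC and 6.14 to 7.23 (median 6.73) in ES, and was called in all 20 alternatives it entered. DAPK1 lost its call without any 1 of 8 arrays (adjusted p up to 0.116 by limma), without the 2 lower-numbered ES arrays (0.0757), with the number class as a block (0.0524) and with 3 EC lines on plastic (0.117).

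Proteases and their inhibitors held 4 lower and 1 higher of 88. SERPINE2, a serpin that blocks thrombin and plasminogen activators, had 7.24, 7.96, 8.54, 7.92 and 7.59 in EC and 8.51 to 10.42 (median 9.64) in ES. Only 833KE reached the ES range, and the difference was -1.70 (SE 0.31, adjusted p = 0.0103) by limma. ADAM19, a membrane metalloprotease, had 5.05, 6.64, 5.46, 5.74 and 6.24 and 6.72 to 7.46 (median 7.25) and differed by -1.34 (SE 0.27, adjusted p = 0.0157). CTSV, a lysosomal cathepsin, differed by -1.20 and MMP16, a membrane-bound matrix metalloprotease, by -1.71, while CTSF, a cathepsin too, was higher (1.03). SLC1A1, a glutamate transporter (-1.82), was the 1 called member of 42 amino acid transporters, and 0 of 44 sugar, lactate and ion transporters was called, although SLC30A6, a zinc exporter of the Golgi, was apart at 1.06 (adjusted p = 0.0654). MMP16 and CTSF each lost the call without any 1 of 9 arrays, and ADAM19 without the lower-numbered ES arrays (0.08).

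Lists of housekeeping genes had medians above 0 that were smaller after quantile normalisation. Lysosome and autophagy genes had a median of 0.29, with 4 of 41 higher and none lower, and 0.17 with 2 higher after that scaling. LAMP2, a major protein of the lysosomal membrane, had 9.97, 9.31, 8.98, 9.01 and 8.98 in EC and 7.49 to 8.67 (median 7.82) in ES, a difference of 1.27 (SE 0.25, adjusted p = 0.0148) by limma, and ATG4A, a protease that processes ATG8 proteins, differed by 1.47. LAMP2 and ATG4A lie on the X chromosome, as does NDUFA1 below. NPC1, the cholesterol exporter (0.64), and PPT1, a thioesterase (0.61), lost their calls after quantile normalisation (0.0777 and 0.177). Proteasome and heat shock genes had a median of 0.29 (0.11 after quantile normalisation) with 2 of 45 higher (4.44%), PSMD12 (0.87) and PSMC2 (0.71), and respiratory chain and citric acid cycle genes 0.22 (0.07) with 2 of 63 (3.17%), shares near the 3.86% of all genes. Those were the complex I subunits NDUFA1 (1.1) and NDUFA9, which lies on 12p and had 10.15, 11.18, 10.94, 11.05 and 9.91 in EC and 8.33 to 9.20 (median 9.05) in ES (difference 1.69 (SE 0.25, adjusted p = 0.00464)). CYP2E1, a cytochrome P450 of alcohol metabolism, was the 1 called of 42 in its list, with 5.36, 5.65, 5.07, 5.36 and 5.74 in EC and 4.26 to 4.80 (median 4.48) in ES (difference 0.93 (SE 0.15, adjusted p = 0.00671)). GCLM, a subunit of the enzyme that starts glutathione synthesis, differed by 0.85. PSMC2 lost its call without any 1 of 9 arrays, PPT1 of 10, NPC1 of 7 and GCLM of 6, and PSMD12 and NDUFA1 without 2102Ep.

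The median of the brightest genes moved with the scaling. Among the 1011 genes whose cluster was in the brightest 10% of all clusters by mean level, 64 were higher and 4 lower with a median of 0.18, and after quantile normalisation 41 and 16 with a median of -0.01. Over all 14220 genes 549 were higher (3.86%) and 238 lower (1.67%) in the deposited values. Of the 64 bright genes called higher, 21 lie on 12p and 20 on chromosome 1, against 84 and 162 of the 549. STOM, a membrane scaffold protein, had 9.76, 10.83, 10.43, 11 and 10.19 in EC and 7.58 to 9.31 (median 8.37) in ES and differed by 2.08 (SE 0.31, adjusted p = 0.00464) by limma. GOLT1B, a Golgi transport protein on 12p, differed by 1.92, and BNIP3, a mitochondrial protein of mitophagy, by 1.69. On the lower side SLC44A2, a choline transporter-like protein, had 9.46, 9.53, 9.55, 8.79 and 9.23 in EC and 10.10 to 10.41 (median 10.26) in ES and differed by -0.93 (SE 0.15, adjusted p = 0.00646). SELENOW, a small selenoprotein, had 8.32, 8.72, 8.46, 9.29 and 8.64 and 9.34 to 9.99 (median 9.74) and differed by -1.04 (SE 0.18, adjusted p = 0.00870). TUBB2B, a beta-tubulin with close paralogues (-1.16), and YWHAH, a 14-3-3 protein (-0.77), were lower too, and lost their calls without any 1 of 8 and 7 arrays. With EC lines on feeders SELENOW differed by -0.06 (adjusted p = 0.905), SLC44A2 by -0.60 (0.205), BNIP3 by 0.77 (0.399) and STOM by 1.43 (0.0855), none of them called. The count of higher genes was 36 to 44 without 1 of 833KE, 2102Ep, Shef6, Shef7, Shef3, TERA1 or H14 and 32 without both lower-numbered ES arrays.

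The lines did not take equal part in the differences. To measure this, each line was left out, clusters were called from the other 10 arrays, and the line was then placed on the scale from the mean of the other group (0%) to the mean of its own (100%). 2102Ep lay beyond the range of the ES lines in 93.4% of 604 clusters called without it and at a median of 98.2% of the difference. 833KE reached 87.2% of 658 and 97.6%, and TERA1 83.4% of 728 and 90.9%. NCCIT and NTERA2 stood lower, beyond the ES range in 60.7% of 1257 and 63.0% of 1198 clusters, at medians of 57.1% and 56.4%. For NTERA2 the deficit was larger in clusters lower in EC (49.5% beyond, median 37.6%) than in clusters higher in EC (70.5% and 66.3%). Over all clusters a line lay beyond the range of the other group in 22% to 35.3% of cases.

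Among the ES lines H9 was the nearest to the EC lines over both directions. It lay beyond the EC range in 66.8% of 1117 clusters called without it, against 86.6% to 96.6% for the other 5. By direction H9 reached 61.5% of clusters higher in EC and 83.8% of those lower (median position 92.9%). In the lower clusters Shef5 stood below it, at 77.5% and a median of 81.6%, and Shef7 had 84.2% and a median of 78.8%. In the 509 separate clusters higher in EC, H9 was the ES line closest to the EC group in 254 and NCCIT the EC line closest to the ES group in 154. In the 201 lower clusters NTERA2 was the closest EC line in 90 and Shef6 the closest ES line in 51.

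**Figure D3:**
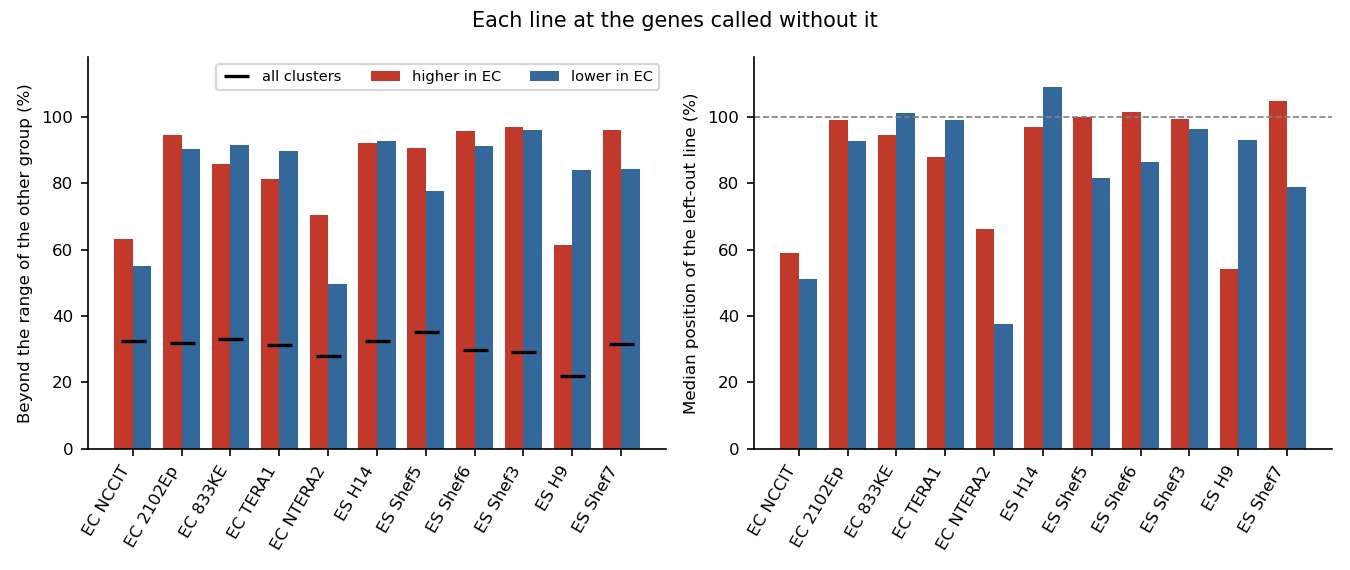
For each of the 11 lines (x axis), left, the share in percent of clusters called without it in which it lay beyond the range of the other group, for clusters higher (red) and lower (blue) in EC, with black marks for the share over all clusters; right, its median position from the other group's mean (0%) to its own group's mean (100%, dashed). NCCIT, NTERA2 and H9 are the lowest of the left panel, at 60.7%, 63.0% and 66.8% over both directions.

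Genes in which 1 line lay alone in the range of the other group are given as a description, since that position chose them. In SPP1, which encodes osteopontin, the EC lines had 8.12, 11.81, 9.84, 11.73 and 9.73 and the ES lines 6.16 to 8.43 (median 7.15), so that only NCCIT overlapped. ABCG2, a drug efflux pump, had 6.34, 9.38, 9.06, 10.28 and 8.22 and 4.92 to 6.55 (median 5.88), again with NCCIT alone in the ES range, as in 77 called clusters. In SFRP1, a secreted WNT antagonist, the EC lines had 5.98, 5.55, 5.23, 5.61 and 8.31 and the ES lines 7.61 to 10.66 (median 9.39), with NTERA2 alone in the ES range. FLT1, a VEGF receptor, had 5.82, 4.01, 3.98, 4.20 and 6.75 and 6.63 to 8.98 (median 7.71), and NTERA2 was alone there in 100 clusters. The other EC lines were alone in the ES range less often: 2102Ep in 18 clusters, 833KE in 35 and TERA1 in 43. One for 2102Ep was NTS, the precursor of neurotensin, with 3.16, 7.89, 3.10, 5.02 and 3.77 in EC and 6.26 to 9.83 (median 9.19) in ES. TERA1 alone was low in MYO9A, an unconventional myosin, with 7.86, 7.36, 7.90, 6.77 and 7.47 in EC and 5.62 to 6.78 (median 5.99) in ES. Of the ES lines, H9 was alone in the EC range in 113 clusters, 104 of them higher in EC. Among these was C2CD5, a 12p gene of glucose transporter traffic, with 8.52, 11.07, 10.61, 10.99 and 10.26 in EC and 7.60 to 8.55 (median 8.12) in ES. H14 was alone in 14 clusters, Shef5 in 44, Shef6 in 15, Shef3 in 10 and Shef7 in 24. The differences were 3.01 (SE 0.66, adjusted p = 0.0243) for SPP1, 2.86 (SE 0.59, adjusted p = 0.0189) for ABCG2 and -3.24 (SE 0.60, adjusted p = 0.0115) for SFRP1 by limma, and -2.80 (SE 0.57, adjusted p = 0.0169) for FLT1. They were -4.23 (SE 0.87, adjusted p = 0.0185) for NTS and 2.23 (SE 0.40, adjusted p = 0.00964) for C2CD5, both uncalled without the 2 lower-numbered ES arrays (0.0915 and 0.0548), and 1.41 (SE 0.24, adjusted p = 0.00807) for MYO9A. SPP1 lost its call without any 1 of 5 arrays and ABCG2 without 2102Ep (0.0525).

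By chromosome arm, called higher genes were most frequent on 12p and next on both arms of chromosome 1. On 12p 84 of 217 genes were higher (38.7%) and none lower, on 1p 89 of 769 (11.6%) and 7 lower, and on 1q 73 of 672 (10.9%) and 4 lower. The X chromosome followed, with 12 of 186 higher on Xp (6.45%) and 1 lower, and 22 of 305 on Xq (7.21%) and 7 lower. Over all 14204 genes placed on an arm 3.87% were higher and 1.68% lower. At the other end 22q and 18p held no higher gene, with 0 of 301 and 0 of 47 by limma. On 22q 5 were lower (1.66%), near the share of all placed genes, and on 18p 3 (6.38%). Each line's shift was taken over the brighter genes of an arm (mean level above the median), relative to the ES lines and to the shift of all brighter genes. On 1p it was 0.48 in NCCIT, 0.22 in 2102Ep, 0.41 in 833KE, 0.05 in TERA1 and 0.21 in NTERA2, with ES lines from -0.05 to 0.12. On 1q it was 0.41, 0.26, 0.24, 0.32 and 0.49 in the same order, with ES lines from -0.10 to 0.15. All 5 EC lines were above all ES lines on 1q, whereas TERA1 was within them on 1p. On 12p, NCCIT was the lowest EC line at 0.43 and 2102Ep the highest at 1.64. The X arms varied widely in both groups, and the groups overlapped. On Xp the shift ran from -0.15 to 0.85 in EC lines and from -0.23 to 0.55 in ES lines. On Xq it ran from -0.01 to 0.58 and from -0.30 to 0.47. DNA copy number was not measured here.

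**Figure D4:**
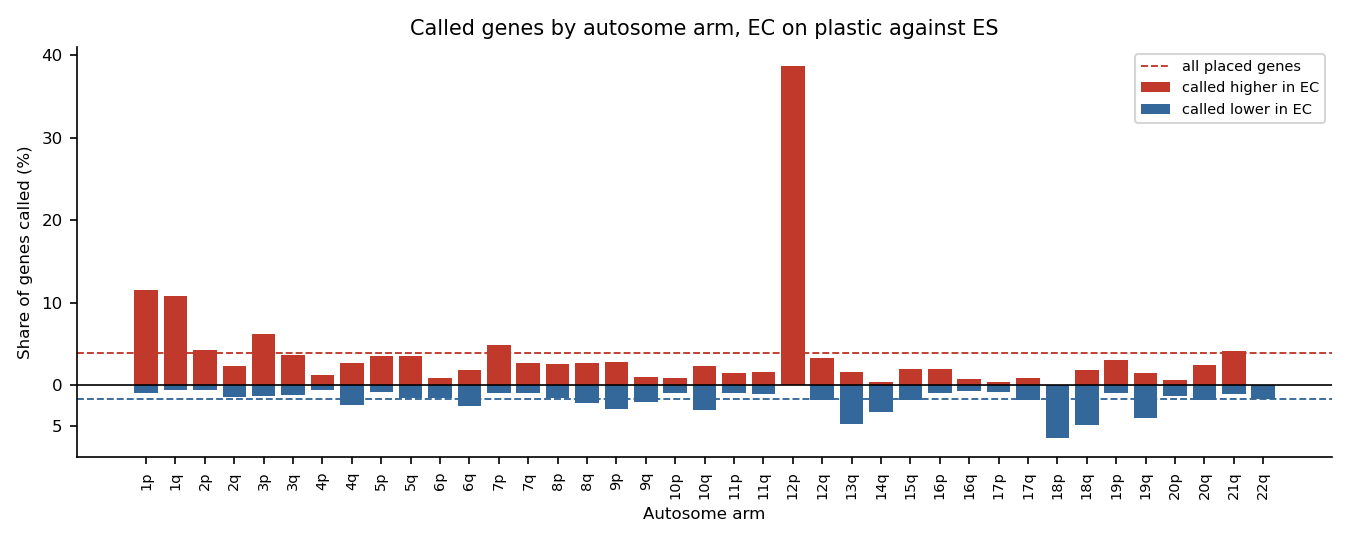
Share of genes called higher (red, upward) and lower (blue, downward) in EC lines on plastic, in percent (y axis), for each autosome arm (x axis). The dashed lines are the shares over all placed genes, 3.87% and 1.68%; 12p reaches 38.7%, 1p 11.6% and 1q 10.9%.

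The higher genes of chromosome 1 were spread along most of it but were few at the start of 1p. In 18 of 19 consecutive windows of 75 genes more genes were called higher than lower, and in 5 windows all EC lines were above all ES lines. Over all placed genes 3.87% were higher and 1.68% lower, so an excess of higher calls alone does not set these windows apart. The windows from LINC02593 to SLC2A5 and from UBR4 to PDIK1L had 3 higher of 75 each, near the share of all genes. The fullest windows were the seventh, from PDZK1IP1 to ALG6, with 19 higher, and the fifth, from FAM167B to ZMPSTE24, with 17, both on 1p. The second window, from H6PD to TAS1R2, had 0 higher and 3 lower by limma. The lines parted company in the ninth window, from CLCA2 to STXBP3, where NCCIT stood at 1.04 and TERA1 at -0.14, and in the window after it, at 0.75 and -0.12. Of the 162 genes higher on chromosome 1, 117 had separate groups, and the median difference was 0.98, with 74 at 1 or more.

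**Figure D5:**
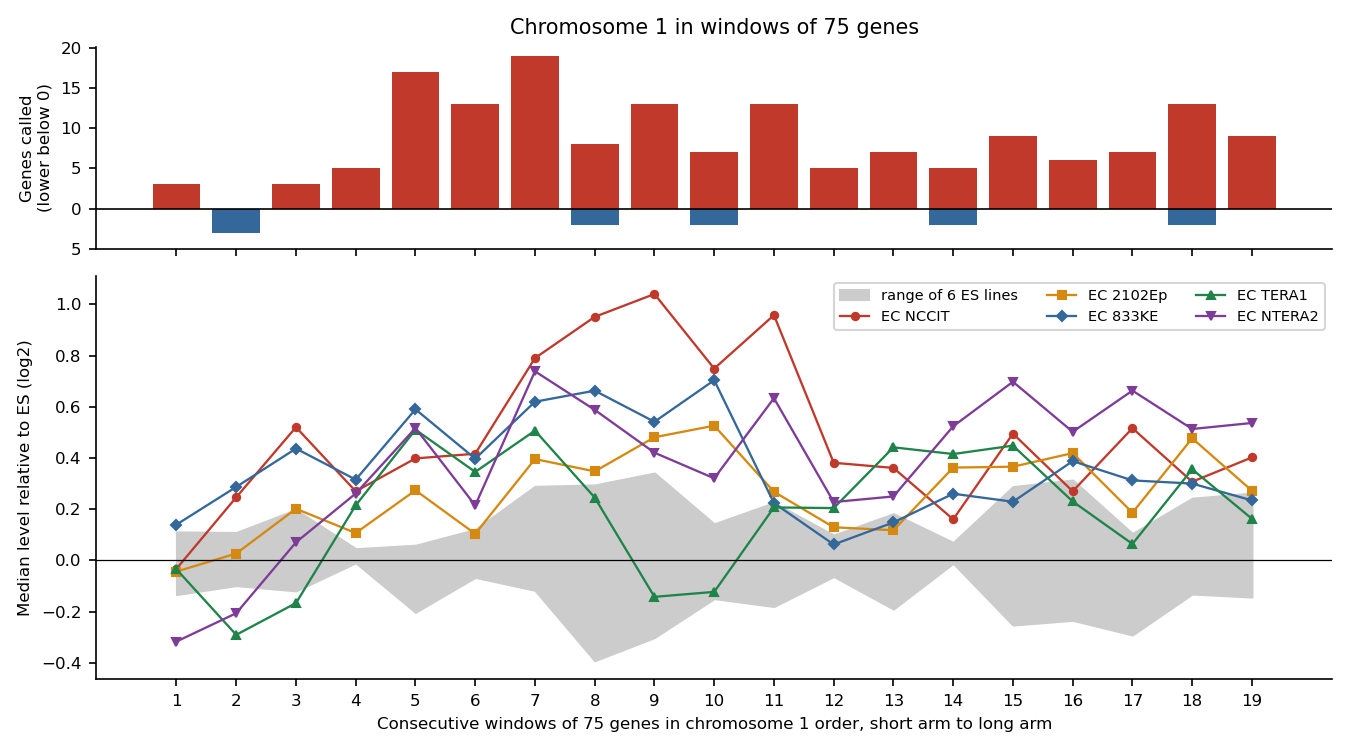
Upper panel, number of genes called higher (above 0) or lower (below 0) in each window of 75 consecutive genes of chromosome 1; lower panel, median log2 level of the brighter genes of each window relative to the ES lines, for each EC line, with the range of the 6 ES lines in grey. NCCIT peaks at 1.04 in window 9, where TERA1 is at -0.14.

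Genes beyond ARHGAP29, TDRD5 and NR5A2 illustrate the spread of functions on this chromosome. HENMT1, the methyltransferase that caps the ends of piRNAs, had 7.36, 6.41, 8.05, 6.39 and 7.14 in EC and 4.60 to 5.92 (median 4.74) in ES and differed by 2.12 (SE 0.33, adjusted p = 0.00535) by limma. LRIF1, a chromatin protein that binds HP1, had 7.22, 8.19, 7.72, 7.43 and 7.87 and 5.32 to 6.83 (median 6.03) and differed by 1.62 (SE 0.25, adjusted p = 0.00596). HENMT1 was called in all 20 alternatives it entered and LRIF1 in all 21. SLC44A5, a choline transporter-like protein, differed by 1.95, TENT5C, a poly(A) polymerase, by 1.56, ERRFI1, a feedback inhibitor of the EGF receptor, by 1.56, and BPNT1, a nucleotidase, by 1.45. These 6 were chosen after their values were seen, as large differences with separate groups. The count on chromosome 1 was 117 after quantile normalisation (8.12%, against 3.11% of all genes), 78 without the 2 lower-numbered ES arrays (5.41% against 2.04%) and 53 with EC lines on feeders (3.68% against 1.94%). With 1 array left out it ran from 89 (without Shef7) to 193 (without H9), and it was 105 to 106 without Shef5, 2102Ep or 833KE, 94 without Shef3 and 92 without Shef6.

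For 3 of the EC lines a culture on feeders in the ES medium is given beside the plastic one, and the same ES arrays serve both. SERPINE2 had 7.96, 8.54 and 7.59 on plastic in 2102Ep, 833KE and NTERA2, and on feeders 8.42 in 2102Ep, 8.86 in 833KE and 10.58 in NTERA2, against 8.51 to 10.42 (median 9.64) in ES. HES1 had 7.09, 6.74 and 6.80 on plastic and 7.62 in 2102Ep, 7.23 in 833KE and 8.53 in NTERA2 on feeders, against 7.22 to 7.73 (median 7.33). In HES1 every feeder culture was above its plastic one, and in SERPINE2 NTERA2 had the widest gap. SDC1 had 6.80, 7.12 and 7.48 on plastic and 7.38 in 2102Ep, 8.14 in 833KE and 8.18 in NTERA2 on feeders, against 7.51 to 8.0 (median 7.76). CER1, the antagonist of nodal and BMP that is high in ES lines, had 5.52, 4.91 and 4.66 on plastic, 7.99 in 2102Ep, 5.83 in 833KE and 8.52 in NTERA2 on feeders and 9.30 to 10.88 (median 10.28) in ES. COL1A1, a fibroblast gene, had 6.60, 6.63 and 6.42 on plastic and 7.45 in 2102Ep, 6.76 in 833KE and 6.97 in NTERA2 on feeders, against 7.11 to 9.22 (median 7.89). AJUBA had 5.76, 5.51 and 6.45 on plastic and 6.79 in 2102Ep, 5.74 in 833KE and 6.34 in NTERA2 on feeders, below every ES line in either culture. GPR176, an orphan receptor, had 4.89, 5.68 and 5.70 on plastic and 5.08 in 2102Ep, 4.48 in 833KE and 5.31 in NTERA2 on feeders, against 8.02 to 9.19 (median 8.33) in ES. Over the 185 named or tabulated genes called on plastic, 101 were not called by limma when the feeder cultures took the place of the plastic ones, and 60 when the same 3 lines on plastic did. Beside the genes whose values without a call are given above, those not called with feeder cultures were COL1A1, CDH11, DSC3, ITGA5, LAMA1, SEMA4G, KLF12, FOXP1, FOXJ3, RARG, RORB, PPARG, KDM5A, RYBP, KDM4A, HELLS, ATRX, CACNA2D3, TRPM4, TACR3, S1PR2, ADRA2A, IL6ST, MMP16, SERPINE2, ADAM19, CTSV, NDUFA1, GCLM, PSMD12, PSMC2, ATG4A, LAMP2, NPC1, PPT1, NOTCH3, TEAD2, AMOTL1, HS3ST2, GRIK5, GRIA3, LRRTM1, DUSP16, PTPRB, NTS, MYO9A, TUBB2B, YWHAH, CDH24, DCHS1, KDM4C, PHF8, TEAD3, CCN1, SMO, NUMBL, SLITRK3, SLC44A5, TENT5C, ERRFI1 and BPNT1. KCNG1, SDC1 and HES1 were not called either and turned direction. Without the 2 lower-numbered ES arrays the genes not called were, in the same way, CDH11, DSC2, DSC3, ITGA5, SEMA4G, KLF12, FOXP1, FOXJ3, RARG, PPARG, CACNA2D3, KCNG1, TRPM4, ADRA2A, GCLM, PSMD12, PSMC2, ATG4A, NPC1, PPT1, NOTCH3, GPC6, HS3ST2, GRIK5, NLGN3, LRRTM1, TUBB2B, YWHAH, DCHS1, CTSF, TEAD3, CCN1, SMO, HES1, NUMBL, CADM4 and TENT5C.

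The exon-level arrays summarise the same hybridisations per probeset, so they are not independent of the gene values. Of 287329 probesets, 8080 were called by limma (2.81%), 5940 of them higher (2.07%) and 2140 lower (0.745%). Among 194 named or tabulated genes 191 had probesets with 1 symbol, 190 had a median probeset difference in the direction of the gene, and 182 had at least 1 probeset called in it. The support was broad in ARHGAP29 (23 of 26 probesets called), FERRY3 (16 of 17), ADIPOR2 (13 of 14), ALCAM (16 of 19) and FREM2 (20 of 22). Few probesets were called in BNIP3 (1 of 9), HDAC1 (3 of 16), ATRX (2 of 56) and LAMA1 (11 of 78), and none in PPT1, NUMBL or HS3ST2. On simulated data the exon-level fit called 0 of 50 probesets changed by 1 and 0 of 50 changed by -1 on the log2 scale. A missing probeset call, as also in S1PR2, therefore says little for a gene with a difference of that size or smaller.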

How the data were processed

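RNA of 5 EC lines on plastic and 6 ES lines was hybridised to Affymetrix Human Exon 1.0 ST arrays. The authors deposited 1 log2 value per transcript cluster (22011) and per exon probeset (287329); the submitters' processing notes name RMA, Affymetrix Expression Console and limma, with no version or role, and the values themselves, which range as log2 signals do, gave the scale. Normalisation settings and annotation release are not given in the sources used here. Detection calls were not used, so signal over background is unknown; precision is limited by how many arrays there are.

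Nothing was transformed or filtered. The 2 groups were fitted in limma 3.58.1 (R 4.3.3; lmFit, then eBayes). P-values are two-sided, were adjusted by Benjamini and Hochberg over every cluster or every probeset, and were read at a threshold of 0.05; a gene past it is called higher or lower. A difference is EC minus ES on the log2 scale. Replicates are different lines, each with 1 array in a group. The p-values set a difference against a spread that holds line, culture and array variation together. The fit was checked on simulated data, with 50 clusters or probesets changed by each amount on the log2 scale. At gene level 31 of 50 changes of 1 and 27 of 50 of -1 were called, with 9 false calls. For changes of 2 and of -2 it was 45 of 50 each. At exon level 0 of 50 were called for 1 and for -1, 26 of 50 for 2 and 21 of 50 for -2. There was 1 false call at exon level. Symbols came from the platform annotation, updated through the RefSeq table of GRCh38.p14: 14432 clusters had 1 symbol, 2408 several and 5171 none, leaving 14220 genes, each read from its cluster with the smallest p. Arms and gene order came from the same table. Tables were handled in Python 3.11.15 with pandas 2.3.3 and numpy 2.4.6, and figures drawn with matplotlib 3.10.9.

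Named genes are ranks 13 to 24 by size in each direction among called genes with separate groups, the next 8 smallest p in each direction outside ranks 1 to 24, up to 4 called members of each of 34 lists (or the 1 with the smallest p), up to 3 genes for each line lying alone in the other group's range, and the 6 largest differences in each direction in the top 10% by level. Further called list members, chromosome 1 genes and CCN2 were added after their values were seen, as were the alternatives for chromosome 1 and the brightest genes. XIST, TSIX and genes of the Y chromosome were left out of the naming. The comparison, the lists and the rules were chosen with earlier results of these data known. Alternatives were quantile normalisation, median centring, leaving out dim features, all 14 arrays in the fit, leaving out the 2 lower-numbered ES arrays, the array number class as a block, 3 EC lines on plastic or on feeders, trended and robust eBayes, array weights, and leaving out each array in turn.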

Additional observations from a re-analysis of the deposited data

Results flagged for a closer look

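In 13 of 290 groups of values behind the named genes (2 per gene) 1 line stood far from the others of its group, at a gap to its nearest neighbour above Dixon's limit, and chance alone marks about 1 in 20 groups. NTERA2 was the line in 5 of them, and its value was on the side of the ES lines in each. Of the 5, SFRP1 had been named because NTERA2 alone among EC lines lay in the ES range, which fixed that side beforehand. It stood at 8.31 in SFRP1 with the next EC line at 5.98, at 7.30 in RARG with the next at 5.73, at 6.97 in CAMKK2 with the next at 6.46, at 6.43 in NLGN3 with the next at 5.69, and at 7.84 in NPC1, where the next EC line was at 8.40. NCCIT stood below the other EC lines in AEBP2 (8.88 against 9.89). Among ES lines H9 stood above the others in AEBP2 (8.71 against 7.98) and HENMT1 (5.92 against 5.04). H14 stood above them in CAMKK2 (8.18 against 7.84) and CLDN3 (7.90 against 7.55). Shef3 was lowest in ITGA9 (6.33 against 6.59), Shef6 in NDUFA9 (8.33 against 8.94) and Shef7 in NTS (6.26 against 8.80). NTS too had been named for such a position, of Shef7 in the EC range and of 2102Ep in the ES range. No cause of these values was tested.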

How the results depend on the processing

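No paired analysis was possible because the replicate numbers of the labels' groups only count different lines and the result compares unrelated EC and ES lines. At gene level (718 higher, 294 lower), the counts were 376 and 151 without H14 and Shef5, 343 and 161 with 3 EC lines on feeders, 1134 and 506 with array weights, and 416 to 853 and 167 to 428 when 1 array was left out. At exon level (5940 higher, 2140 lower) they were 1750 and 706, 1752 and 987, and 8644 and 3384 in the same order of settings, and 2651 to 7811 and 1048 to 3569 with 1 array left out. Quantile normalisation gave 571 and 437 clusters, and 4734 and 3023 probesets. Without H14, Shef6, 2102Ep, Shef3 or Shef7 there were 475, 444, 437, 416 and 422 clusters higher, and without H14, Shef6, 2102Ep, Shef3, 833KE or TERA1 181, 190, 167, 171, 177 and 182 lower. Of 4018 refits of 194 named or tabulated genes, 3236 left the call and direction as they were, 762 lost the call, 16 gained one and 4 turned direction, all with EC lines on feeders: KCNG1 (0.066), SDC1 (0.14), WLS (0.22) and HES1 (0.39). Of the 185 genes called, 58 were called in every alternative they entered (132 of the 185 entered the 1 without dim features), 113 without H14 and Shef5, and 84 with EC lines on feeders; the cause was not tested. Signal over background is unknown, so a missing call in a dim gene says little.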
